A study of Homo sapiens with 6 samples.

Results

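The genes described here are the nuclear genes for subunits of mitochondrial oxidative phosphorylation in HepG2, a human hepatocellular carcinoma cell line. Protein-coding rows were taken by symbol: NDUFA, NDUFB, NDUFC, NDUFS and NDUFV for complex I without the NDUFAF assembly factors, SDHA to SDHD, UQCR and CYC1, COX4 to COX8, and ATP5. The rule found 88 of the 26389 rows of the count table, with 87 distinct symbols because NDUFA7 has 2 rows. The symbols are the older ones, such as ATP5C1 for ATP5F1C, and are kept as deposited. Of the 88 rows, 81 passed the filter on low counts. The 7 that did not were the second NDUFA7 row, UQCRHL, COX4I2, COX6B2, COX8C, ATP5EP2 and ATP5L2.

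Messenger RNA had been sequenced from 6 samples of HepG2 cells transfected with plasmids for short hairpin RNA. In 3 samples (shTCTP 1, 2 and 3) the hairpin was directed against TCTP, a growth-related protein whose gene is TPT1. In the other 3 (shCtrl 1, 2 and 3) the plasmid carried a control hairpin. All 6 thus share the cell line and the transfection with a lipid reagent, and the labels name a harvest after 48 h for quantitative PCR only. The design compares TCTP knock-down with control, and the series title ties it to hepatic metabolism. The labels do not say whether the samples of 1 group were grown separately. The p-values therefore rest on a spread between samples that may be only technical.

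Oxidative phosphorylation is carried out by 5 protein complexes of the inner mitochondrial membrane. Complex I (NADH dehydrogenase) and complex II (succinate dehydrogenase) pass electrons to ubiquinone, complex III passes them on to cytochrome c, and complex IV (cytochrome c oxidase) hands them to oxygen. The protons pumped by complexes I, III and IV drive ATP synthesis by complex V. Most subunits are encoded in the nucleus and imported, complex II entirely so, while the mitochondrial genome supplies part of the core of the other 4. In hepatocytes this machinery supplies the ATP for urea and glucose synthesis and oxidises the electrons from fatty acid breakdown.

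The libraries held 25427614 to 30486409 reads assigned to genes, with shTCTP 3 the shallowest. It also correlated less with the rest (mean r = 0.977 over genes, where each other library had 0.986 or 0.987), so results are given with and without it. Levels of TPT1 were 2032, 1807 and 1559 CPM (read counts scaled to library size, with TMM factors) in shTCTP 1, 2 and 3, against 2575, 2249 and 2290 CPM in shCtrl 1, 2 and 3. The groups did not overlap, but TPT1 was not called (log2 fold change -0.40, SE 0.17, adjusted p = 0.396, edgeR quasi-likelihood test). All 8 hepatocyte and hepatoma markers were detected, with summed levels of 5360 to 6300 FPKM in shTCTP and 6560 to 7060 FPKM in shCtrl. Of 7 markers of other cells, PECAM1, VWF, KRT5, MYH7 and GFAP stayed at or under 0.12 FPKM, and ACTA2 and CD14 made up nearly all of sums of 29.5 to 37.6 FPKM in shTCTP and 27.3 to 28.7 FPKM in shCtrl. The part of these markers in the results was not tested. In a bulk sample, fewer cells of a type and less RNA per cell cannot be told apart.

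No nuclear OXPHOS gene passed the test for a difference between shTCTP and shCtrl. Of the 81 tested members, 0 had an adjusted p under 0.05 in the edgeR quasi-likelihood test, where 1.41% of all 14197 tested genes did (200 genes, of which 179, or 1.26% of all, were higher and 21, or 0.148%, were lower in shTCTP). DESeq2, limma voom and every other setting tried also called 0 members. At an unadjusted p under 0.05 there were 2 members, NDUFA4L2 and ATP5C1, both with lower values in shTCTP, where 11.1% of all genes met that limit in either direction and 4.27% with lower values. The lowest adjusted p was 0.179. The 95% confidence interval excluded a 1.5-fold difference in either direction for 67 of the 81 members, and the SE of a log2 fold change had a median of 0.158 (range 0.122 to 0.338).

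Most members were abundant: 73 of the 81 tested had a mean of at least 10 FPKM (fragments scaled to gene length and depth, the authors' scale of level per gene length). The most abundant in each complex were NDUFS5 (441 FPKM over the 6 libraries) and NDUFB7 (325 FPKM) in complex I, SDHB (82.6 FPKM) and SDHA (75.0 FPKM) in complex II, UQCRH (384 FPKM) and UQCRQ (308 FPKM) in complex III, COX6A1 (831 FPKM) and COX5B (690 FPKM) in complex IV, and ATP5I (883 FPKM) and ATP5B (594 FPKM) in complex V. The lowest tested members were NDUFA4L2 (0.755 FPKM), ATP5S (1.10 FPKM) and NDUFA5 (2.26 FPKM). The authors' gene lengths, read back from counts and FPKM, ran from 381 nt for ATP5I to 14148 nt for SDHC, and a long gene model lowers FPKM. Per kilobase of 1 GENCODE transcript per gene, COX4I1 stood first (1030 CPM per kb), followed by ATP5I (938) and COX6A1 (874), and UQCRB stood at 164 CPM per kb although its FPKM was 17.8.

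**Figure D1:**
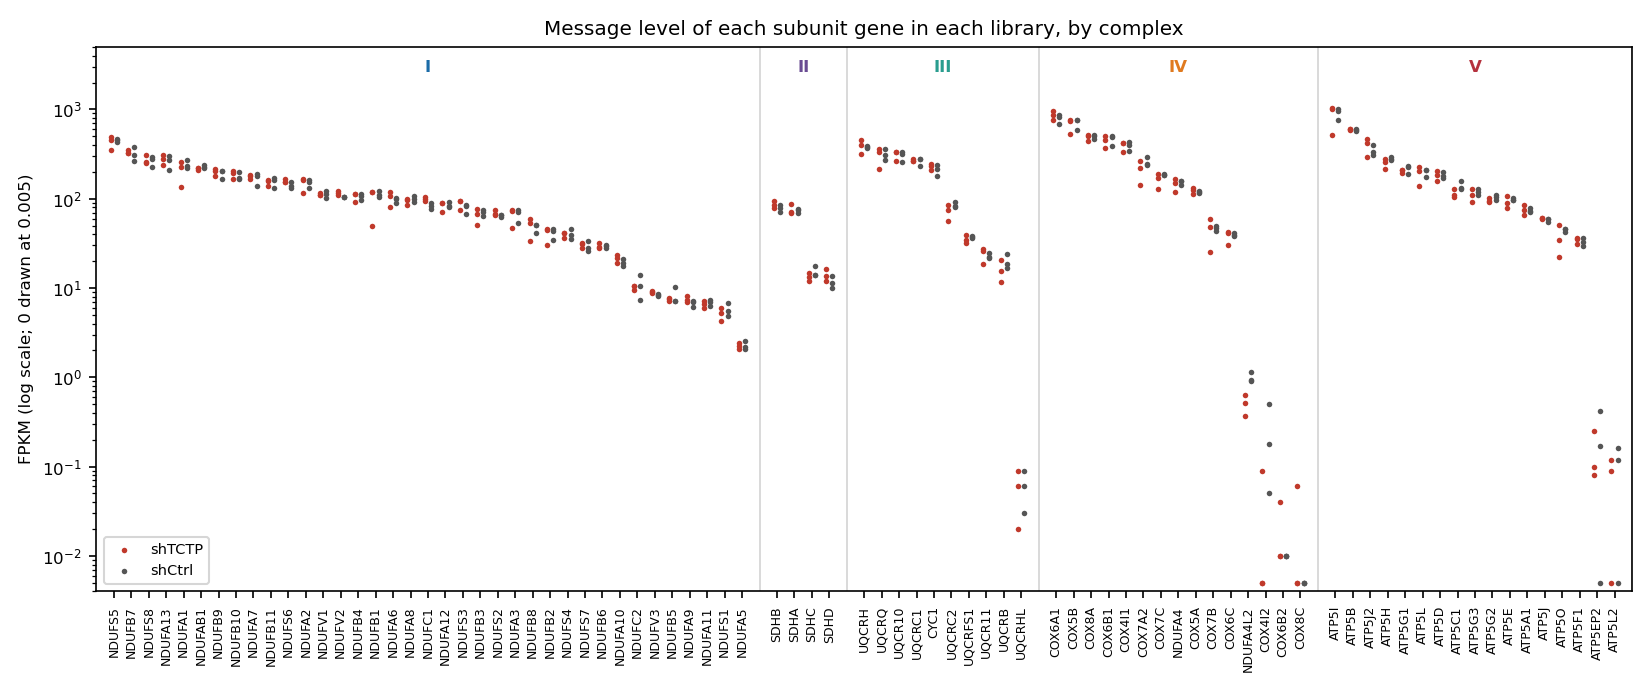
FPKM of every subunit gene in each library on a log scale, grouped by complex and ordered by mean, with 3 shTCTP points left of 3 shCtrl points per gene. Within most genes the 2 sets of points overlap, and COX4I2, COX6B2, COX8C and the retrocopies lie below 1 FPKM.

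The summed level of each complex differed between groups by less than the larger SD of the 2 groups, except in complex II, where the libraries still overlapped. All members together gave 14090, 13790 and 11180 FPKM in shTCTP 1, 2 and 3, against 11920, 13560 and 13810 FPKM in shCtrl 1, 2 and 3. As a share of all reads that was 1.83%, 1.78% and 1.53% in shTCTP and 1.6%, 1.77% and 1.79% in shCtrl. Libraries shTCTP 3 and shCtrl 1 were thus the low ones, 1 in each group. Complex I summed to 4110 ± 424 FPKM in shTCTP and 4080 ± 326 FPKM in shCtrl, and complex II to 189 ± 6.58 FPKM in shTCTP and 180 ± 3.0 FPKM in shCtrl (SD, n = 3 each). Complex III summed to 1650 ± 193 FPKM in shTCTP and 1630 ± 121 FPKM in shCtrl, complex IV to 3590 ± 500 FPKM in shTCTP and 3650 ± 358 FPKM in shCtrl, and complex V to 3300 ± 492 FPKM in shTCTP and 3400 ± 216 FPKM in shCtrl (SD, n = 3 each).

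Small negative fold changes were frequent. With all 6 libraries 67 of 81 members (82.7%) had a log2 fold change below 0, against 50.4% of all tested genes. The median log2 fold change was -0.087 in complex I (37 genes), -0.021 in complex II (4 genes), -0.068 in complex III (9 genes), -0.14 in complex IV (12 genes) and -0.17 in complex V (15 genes), against -0.002 over all tested genes. Without shTCTP 3 the medians were 0.067, 0.008, 0.077, 0.029 and -0.017 for complexes I to V, and -0.008 over the same tested genes. Negative values were then found for 29 of 81 members, against 51.3% of all genes tested in those 5 libraries. The sign turned from negative to positive in 38 members and the other way in 0. On the FPKM scale, with a pseudocount of 1, the medians of complexes I, II and III were also positive (0.003, 0.079 and 0.012, where all genes had 0.057), and those of complexes IV and V were -0.070 and -0.083. Without shCtrl 3 the medians of complexes II and III were 0.017 and 0.005. Leaving out 1 library could also move the median of each complex farther below 0 than with all 6. The ranges are given in the closing section. Still 0 members passed without shTCTP 3, where 2.38% of all genes did, and the lowest adjusted p was 0.256.

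**Figure D2:**
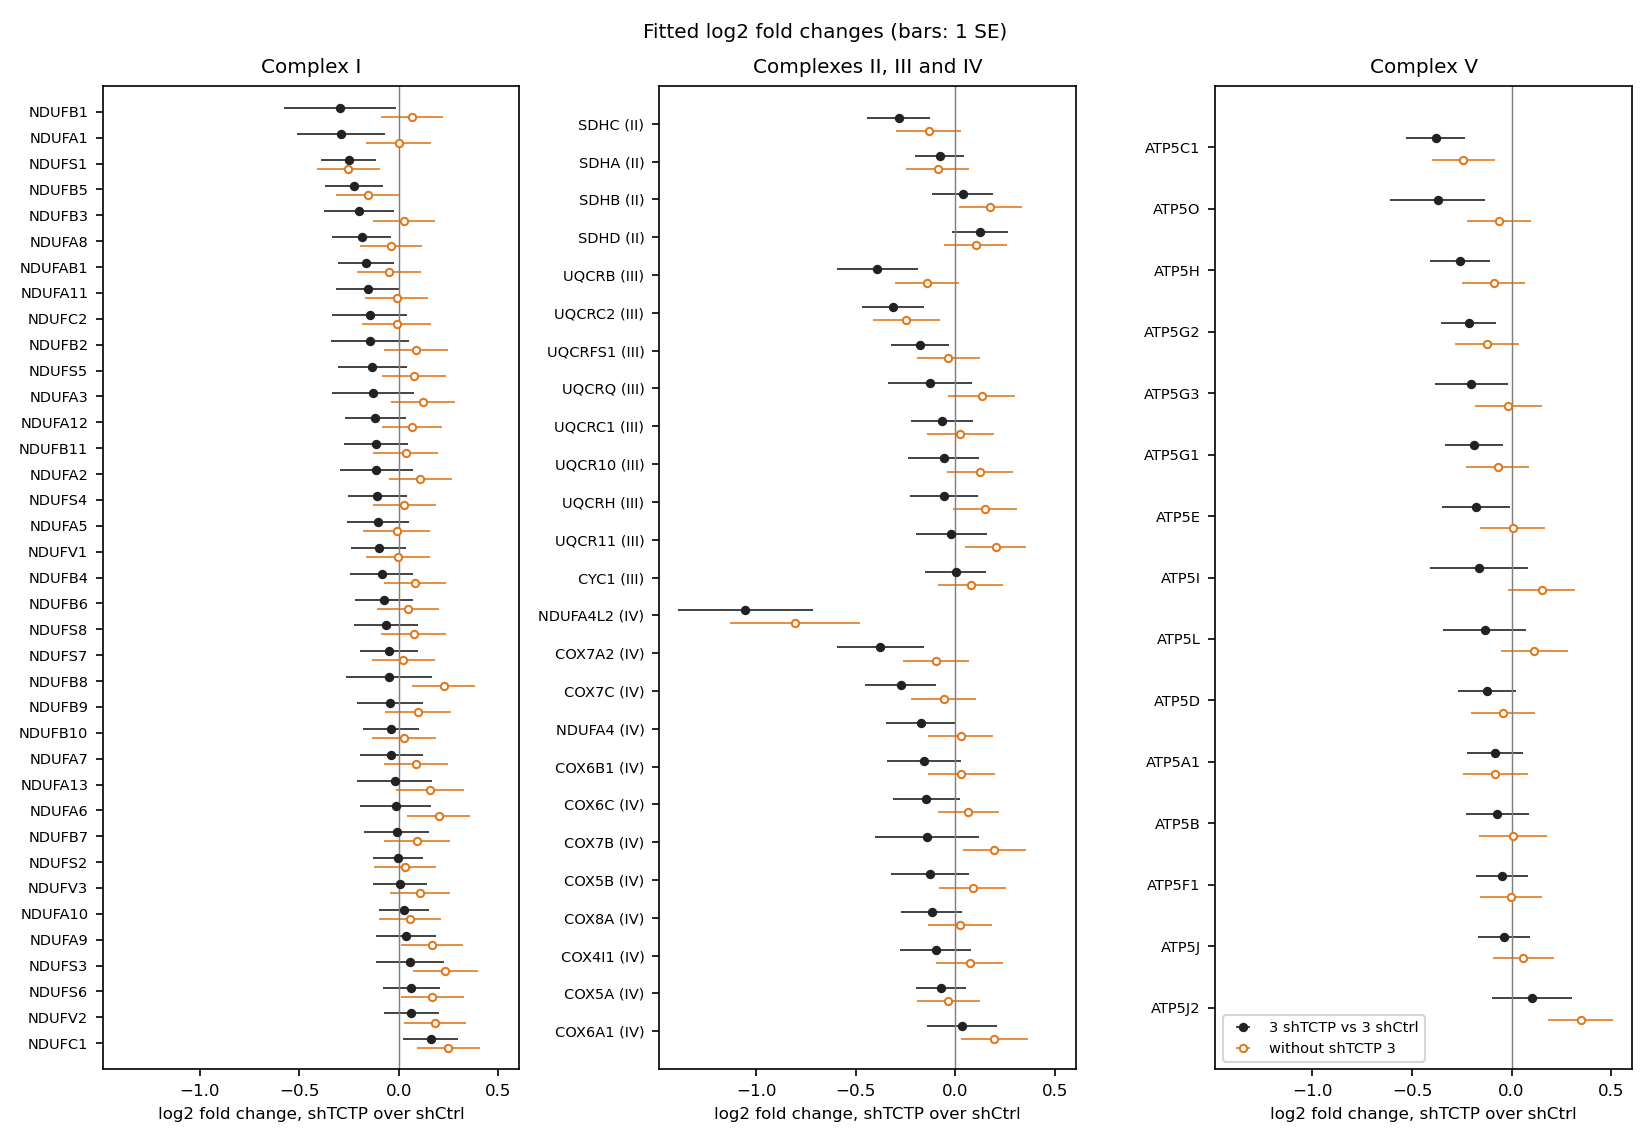
Fitted log2 fold changes (shTCTP over shCtrl) of the subunit genes by complex, with bars of 1 SE; filled points use all 6 libraries and open points leave out shTCTP 3. Open points lie to the right of filled points in most rows, and NDUFA4L2 at -1.06 is the gene farthest from 0.

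Library shTCTP 3 was the lowest of the 6 for 63 of the 81 members (77.8%), against 22.5% of all tested genes. It was lowest for 27 of 37 complex I genes, 2 of 4 complex II genes, 7 of 9 complex III genes, all 12 complex IV genes and 13 of 15 complex V genes. The median distance from the mean of the shCtrl libraries, on the log2 CPM scale, was 0.10, 0.008 and -0.43 in shTCTP 1, 2 and 3, and -0.18, 0.032 and 0.13 in shCtrl 1, 2 and 3. For all genes it ran from -0.013 to 0.036. In shTCTP 1, 61 members lay above the shCtrl mean, in shTCTP 2 it was 46, and in shTCTP 3 it was 2. By complex the distance in shTCTP 3 was -0.36, -0.15, -0.48, -0.64 and -0.51 for complexes I to V, so complex II was the least displaced.

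**Figure D3:**
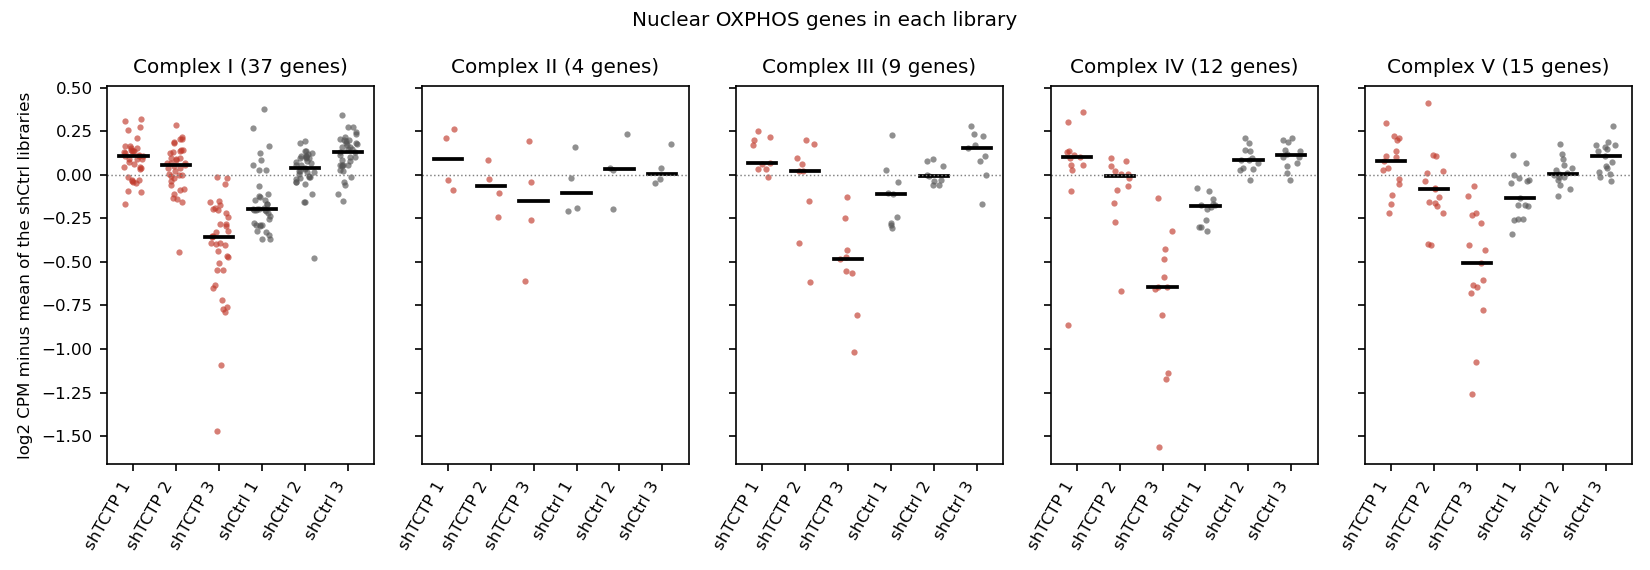
Each point is 1 gene, its log2 CPM in a library minus the mean of the 3 shCtrl libraries, with a line at the median, for the 5 complexes. In shTCTP 3 the medians lie between -0.64 and -0.15, while in shTCTP 1 and 2 they lie between -0.081 and 0.11.

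The distance in shTCTP 3 was smaller for members with longer coding sequences, but showed no steady order by transcript length. Members with 300 to 499 nt of coding sequence had a median of -0.43 in shTCTP 3 (26 genes) and those with 500 to 799 nt had -0.35 (20 genes). Other protein-coding genes of those lengths had -0.20 (804 genes) and -0.088 (1637 genes). The 19 members under 300 nt stood at -0.65, against -0.21 for 237 other genes, and the 10 members of 1300 nt or more at -0.22, against 0.15 for 6483 other genes. In shCtrl 1, the other low library, the corresponding medians of other genes ran from -0.12 under 300 nt to 0.088 at 1300 nt or more, and those of the members from -0.19 to -0.12, nearly level. By length of 1 GENCODE transcript per gene, the members in shTCTP 3 stood at -0.48 under 800 nt (30 genes), -0.44 from 800 to below 1200 nt (23 genes), -0.25 from there to below 2000 nt (11 genes), -0.45 from there to below 4000 nt (12 genes) and -0.29 at 4000 nt or more (5 genes). Other protein-coding genes in the same bins ran in steps from -0.32 to 0.22. With a correction for the authors' gene length, the medians of complexes I to V were -0.064, -0.004, -0.062, -0.14 and -0.17 and 0 members were called.

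**Figure D4:**
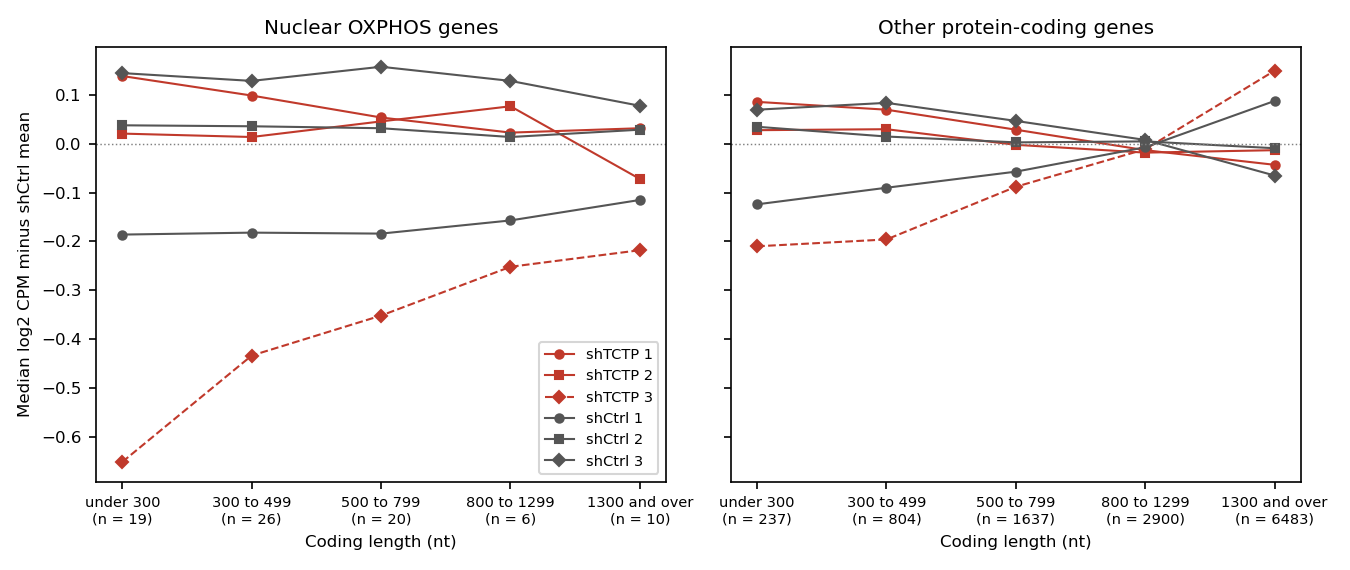
Median log2 CPM minus the shCtrl mean in each library by coding length, for the members and for other protein-coding genes, with the number of genes under each bin. The dashed line (shTCTP 3) climbs from -0.65 to -0.22 for the members and from -0.21 to 0.15 for the other genes.

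Promoters are shown for 5 members: the 2 with the lowest p (ATP5C1 and NDUFA4L2), NDUFB1 and ATP5I, and COX4I1 as the highest per kilobase of transcript. NDUFB1 (-1.47) and ATP5I (-1.08) are 2 of the 8 members more than 1 log2 unit below the shCtrl mean in shTCTP 3. They are not the 2 lowest, since NDUFA4L2 lay below both, and ATP5O, COX7B, COX7A2 and NDUFA1 lay below ATP5I. Each runs 5′ to 3′ from 250 bases before to 50 bases after the gene's start, from RefSeq on GRCh38.p14. Capitals mark the letters of 4 motifs, searched on both strands, with overlaps allowed: GCGCA, any base and GCGC for NRF1, CCGGAAG for the ETS family factor GABP, AAGATGG for YY1 and ACGTG, the core shared by hypoxia and E-box sites. The first 3 belong to factors known as activators of respiratory chain genes. The windows are chr10:7787927-7788226 (plus strand) for ATP5C1, chr12:57240695-57240994 (minus) for NDUFA4L2, chr14:92121657-92121956 (minus) for NDUFB1, chr4:674227-674526 (minus) for ATP5I and chr16:85799445-85799744 (plus) for COX4I1.
ATP5C1: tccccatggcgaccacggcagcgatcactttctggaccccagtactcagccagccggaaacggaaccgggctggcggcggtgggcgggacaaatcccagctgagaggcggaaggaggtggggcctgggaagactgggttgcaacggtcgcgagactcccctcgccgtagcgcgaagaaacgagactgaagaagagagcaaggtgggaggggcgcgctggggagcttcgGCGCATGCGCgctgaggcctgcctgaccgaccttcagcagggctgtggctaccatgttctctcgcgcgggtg
NDUFA4L2: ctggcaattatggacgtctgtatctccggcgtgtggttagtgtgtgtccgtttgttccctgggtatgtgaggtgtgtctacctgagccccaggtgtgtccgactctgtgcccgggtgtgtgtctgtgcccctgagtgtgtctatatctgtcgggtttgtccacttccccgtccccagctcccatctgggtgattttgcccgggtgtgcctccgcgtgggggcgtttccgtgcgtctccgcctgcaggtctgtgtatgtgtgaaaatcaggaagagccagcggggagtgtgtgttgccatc
NDUFB1: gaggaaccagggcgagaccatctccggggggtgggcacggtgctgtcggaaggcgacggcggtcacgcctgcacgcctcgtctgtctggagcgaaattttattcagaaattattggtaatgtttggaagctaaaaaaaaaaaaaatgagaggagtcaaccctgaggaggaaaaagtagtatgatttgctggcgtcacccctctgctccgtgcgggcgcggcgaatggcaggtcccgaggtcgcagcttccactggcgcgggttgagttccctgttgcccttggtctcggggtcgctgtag
ATP5I: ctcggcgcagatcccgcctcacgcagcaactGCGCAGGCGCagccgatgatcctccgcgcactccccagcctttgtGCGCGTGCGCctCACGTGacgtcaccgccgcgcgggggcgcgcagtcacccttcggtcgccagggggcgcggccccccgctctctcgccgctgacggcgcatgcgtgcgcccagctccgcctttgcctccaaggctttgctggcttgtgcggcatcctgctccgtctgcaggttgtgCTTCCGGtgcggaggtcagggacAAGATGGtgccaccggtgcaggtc
COX4I1: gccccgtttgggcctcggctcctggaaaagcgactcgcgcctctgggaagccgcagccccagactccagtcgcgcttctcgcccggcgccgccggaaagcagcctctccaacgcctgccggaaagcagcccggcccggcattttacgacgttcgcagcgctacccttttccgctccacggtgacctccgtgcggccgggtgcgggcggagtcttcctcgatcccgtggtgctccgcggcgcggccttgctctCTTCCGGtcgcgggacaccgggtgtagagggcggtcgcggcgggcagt
The ATP5C1 window holds 1 NRF1 match, the ATP5I window 2 NRF1 matches with 1 ETS, 1 YY1 and 2 ACGTG matches (the same bases read on either strand), and the COX4I1 window 1 ETS match. The NDUFA4L2 and NDUFB1 windows hold none of the 4, nor does the window of COX7B, which is not printed. Among the 66 tested members with a RefSeq promoter, NRF1 letters were found in 15 (22.7%, against 7.39% of 22199 promoters of protein-coding genes), ETS letters in 19 (28.8%, against 12.8%), YY1 letters in 17 (25.8%, against 6.04%) and ACGTG in 16 (24.2%, against 23%). A match is a description of the letters and does not show binding.

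Complex I oxidises NADH, and its 7 nuclear core subunits carry the flavin and the iron-sulfur clusters in the matrix arm. These 7 had log2 fold changes from -0.25 to 0.062, with a median of -0.050 and of 0.029 without shTCTP 3. The 30 tested accessory subunits, which stabilise the complex, ran from -0.30 to 0.16 with a median of -0.11, and of 0.070 without shTCTP 3. NDUFS1 (ENSG00000023228.13, chromosome 2, 206114817 to 206159603, minus strand), the large iron-sulfur subunit, had the smallest p of complex I. Its levels were 68.8, 53.9 and 63.1 CPM in shTCTP 1, 2 and 3, against 82.4, 72.6 and 66.1 CPM in shCtrl 1, 2 and 3. The groups overlapped, and the low value was that of shTCTP 2 (log2 fold change -0.25, SE 0.14, adjusted p = 0.532, and -0.25 without shTCTP 3). NDUFS1 shares bases with EEF1B2 on the opposite strand, which had 245829 reads over the 6 libraries against its own 11930.

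NDUFB5 (ENSG00000136521.12, chromosome 3, 179604690 to 179627647), an accessory subunit of the membrane arm, came next. It had 33.6, 34.2 and 30.0 CPM in shTCTP 1, 2 and 3 and 45.4, 33.9 and 34.9 CPM in shCtrl 1, 2 and 3. The difference of means rested on the high shCtrl 1 (log2 fold change -0.22, SE 0.15, adjusted p = 0.616, or -0.078 without shCtrl 1). NDUFB1, a short membrane-arm subunit whose promoter is printed above, gave 110, 107 and 37.5 CPM in shTCTP 1, 2 and 3 and 91.1, 114 and 108 CPM in shCtrl 1, 2 and 3. Only shTCTP 3 was low, at -1.47 from the shCtrl mean on the log2 scale, and the fold change of -0.30 (SE 0.28, adjusted p = 0.762) became 0.067 without that library. NDUFA1, an X-linked accessory subunit, had the same low library, with 215, 181 and 93.1 CPM in shTCTP 1, 2 and 3 and 172, 225 and 201 CPM in shCtrl 1, 2 and 3 (log2 fold change -0.29, adjusted p = 0.679, and -0.002 without shTCTP 3). NDUFB1 was chosen after its values were seen. At the other end NDUFC1 had the highest log2 fold change of the complex, 0.16 (SE 0.14, adjusted p = 0.733, and 0.25 without shTCTP 3), and lay near the shCtrl mean in shTCTP 3. The most abundant members had close group means. NDUFS5 had 433 ± 75.3 FPKM in shTCTP and 448 ± 19.9 FPKM in shCtrl, and NDUFB7 had 336 ± 15.8 FPKM in shTCTP and 315 ± 57.3 FPKM in shCtrl (SD, n = 3 each). In CPM, NDUFS5 also had its low library in shTCTP 3, with 295, 263 and 171 CPM in shTCTP and 240, 269 and 290 CPM in shCtrl. Its log2 fold change was -0.13, and 0.074 without shTCTP 3.

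Complex II is the succinate dehydrogenase of the citrate cycle. SDHA, which binds the flavin and oxidises succinate, had 181, 178 and 186 CPM in shTCTP 1, 2 and 3, against 190, 197 and 189 CPM in shCtrl 1, 2 and 3. The groups did not overlap, yet the log2 fold change was -0.079 (SE 0.12, adjusted p = 0.866). SDHB, the iron-sulfur subunit, had 118, 104 and 82.0 CPM in shTCTP and 84.9, 100 and 111 CPM in shCtrl, so the shTCTP range spanned that of shCtrl (log2 fold change 0.037, SE 0.15, adjusted p = 0.959). SDHC and SDHD anchor the enzyme in the membrane. SDHC had 218, 188 and 146 CPM in shTCTP and 195, 262 and 215 CPM in shCtrl (log2 fold change -0.29, SE 0.16, adjusted p = 0.541, -0.13 without shTCTP 3 and -0.16 without shCtrl 2). SDHD had 33.6, 28.6 and 33.2 CPM in shTCTP and 32.4, 25.3 and 29.8 CPM in shCtrl, and was the member highest above the shCtrl mean in shTCTP 3 (log2 fold change 0.13, SE 0.14, adjusted p = 0.811). SDHD shares bases with TIMM8B on the opposite strand, which had 27098 reads against its own 5363.

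In complex III the redox subunits are cytochrome c1 (CYC1) and the Rieske iron-sulfur protein (UQCRFS1). CYC1 averaged 286 ± 31.0 CPM in shTCTP and 285 ± 51.0 CPM in shCtrl, and UQCRFS1 averaged 125 ± 23.1 CPM in shTCTP and 141 ± 10.4 CPM in shCtrl (SD, n = 3 each). UQCRC2 (ENSG00000140740.10, chromosome 16, 21952660 to 21983660), a core structural protein, had the smallest p of the complex. Its levels were 250, 160 and 181 CPM in shTCTP 1, 2 and 3, against 250, 240 and 244 CPM in shCtrl 1, 2 and 3. Here shTCTP 2 was the lowest library and shTCTP 1 lay at the control level (log2 fold change -0.31, SE 0.16, adjusted p = 0.478, and -0.25 without shTCTP 3). UQCRB (ENSG00000156467.9, chromosome 8, 96225920 to 96235634), a small subunit near the ubiquinone site, had 134, 98.0 and 63.4 CPM in shTCTP and 150, 123 and 114 CPM in shCtrl. The groups overlapped through shTCTP 1 (log2 fold change -0.39, SE 0.20, adjusted p = 0.492, and -0.14 without shTCTP 3). All 5 tested small subunits had negative values with 6 libraries and 1 of the 5 without shTCTP 3. A pseudogene row of UQCRFS1 held 6.07% as many reads as the gene itself.

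Complex IV had the gene with the largest fold change of the list. NDUFA4L2 (ENSG00000185633.10, chromosome 12, 57234903 to 57240715, minus strand) is a hypoxia-induced paralog of NDUFA4, a protein first assigned to complex I and now placed in complex IV. It had 22, 26 and 13 reads in shTCTP 1, 2 and 3, against 38, 48 and 39 reads in shCtrl 1, 2 and 3, or 0.507 ± 0.131 FPKM in shTCTP and 1.0 ± 0.136 FPKM in shCtrl (SD, n = 3 each). The groups did not overlap (log2 fold change -1.06, SE 0.34, 95% interval -1.77 to -0.34, unadjusted p = 0.0064, adjusted p = 0.179), and without shTCTP 3 the value was -0.81 with an adjusted p of 0.256. The gene shares bases with SHMT2 on the opposite strand, which had 98454 reads against 186 for NDUFA4L2, and how reads of the strands were kept apart is not given in the sources used here, so its count is uncertain. SHMT2 itself had a log2 fold change of -0.17 (adjusted p = 0.748). The promoter window of NDUFA4L2 printed above holds no ACGTG. The letters GCGTG do occur in it, but that form was not searched, so the window cannot be said to lack a hypoxia site.

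NDUFA4 had 144 ± 24.3 FPKM in shTCTP and 153 ± 8.30 FPKM in shCtrl (SD, n = 3 each; log2 fold change -0.17, adjusted p = 0.781, and 0.027 without shTCTP 3). COX7A2, a small subunit and the liver-type partner of a muscle isoform, had 312, 248 and 136 CPM in shTCTP 1, 2 and 3, against 262, 341 and 302 CPM in shCtrl 1, 2 and 3. The groups overlapped and shTCTP 3 was far below the rest (log2 fold change -0.38, SE 0.22, adjusted p = 0.559, and -0.096 without shTCTP 3). COX7C had 376, 329 and 211 CPM in shTCTP and 345, 376 and 386 CPM in shCtrl (log2 fold change -0.27, SE 0.18, adjusted p = 0.617, and -0.058 without shTCTP 3). COX7B, chosen after its values were seen, had 160, 125 and 55.3 CPM in shTCTP and 110, 128 and 138 CPM in shCtrl, with both the highest and the lowest library in the shTCTP group. COX5A, a small matrix-side subunit, was level across the libraries, with 172, 183 and 167 CPM in shTCTP and 174, 179 and 196 CPM in shCtrl (log2 fold change -0.073, SE 0.13, adjusted p = 0.882). COX5B gave 681 ± 125 FPKM in shTCTP and 699 ± 98.7 FPKM in shCtrl, and COX6A1 gave 868 ± 103 FPKM in shTCTP and 793 ± 102 FPKM in shCtrl (SD, n = 3 each).

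The ubiquitous isoforms carried nearly all reads of complex IV in both groups. COX4I1, the general form of subunit 4, had 390 ± 46.2 FPKM in shTCTP and 391 ± 43.2 FPKM in shCtrl (SD, n = 3 each), while COX4I2, its lung and hypoxia form, had 2, 0 and 0 reads in shTCTP and 1, 11 and 4 reads in shCtrl. COX6B1 had 442 ± 67.3 FPKM in shTCTP and 462 ± 59.5 FPKM in shCtrl (SD, n = 3 each), while the testis form COX6B2 had 1 to 4 reads per library. COX8A had 490 ± 37.1 FPKM in shTCTP and 497 ± 28.6 FPKM in shCtrl (SD, n = 3 each), and COX8C had 1 read in all, in shTCTP 2. The other forms COX6A2, COX7A1 and COX7B2 had no row that met the rule. Outside complex IV, UQCRHL, a retrocopy of UQCRH, had 4, 6 and 1 reads in shTCTP and 4, 6 and 2 in shCtrl, while UQCRH had 388 ± 69.5 FPKM in shTCTP and 380 ± 11.7 FPKM in shCtrl (SD, n = 3 each).

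Complex V held the other gene with an unadjusted p under 0.05. ATP5C1 (ENSG00000165629.19, chromosome 10, 7788129 to 7807815, plus strand) encodes the gamma subunit, the rotating central stalk of the F1 head. It had 162, 133 and 109 CPM in shTCTP 1, 2 and 3, against 190, 165 and 171 CPM in shCtrl 1, 2 and 3. Every shTCTP library lay below every shCtrl library (log2 fold change -0.38, SE 0.15, 95% interval -0.69 to -0.070, unadjusted p = 0.0195, adjusted p = 0.311). Without shTCTP 3 the value was -0.24 with an adjusted p of 0.626. The beta and alpha subunits of the head stayed closer to control. ATP5B, the beta subunit, had 1120 ± 100 CPM in shTCTP and 1170 ± 90.8 CPM in shCtrl (SD, n = 3 each; log2 fold change -0.072, adjusted p = 0.915). ATP5A1, the alpha subunit, had a log2 fold change of -0.083 (adjusted p = 0.879).

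ATP5H, the d subunit of the peripheral stalk, had 188, 168 and 122 CPM in shTCTP 1, 2 and 3, against 189, 192 and 192 CPM in shCtrl 1, 2 and 3. The groups touched without overlapping, shTCTP 1 lying next to shCtrl 1 (log2 fold change -0.26, SE 0.15, adjusted p = 0.560, and -0.090 without shTCTP 3). ATP5H shares bases with KCTD2 on the opposite strand, which had 8426 reads against its own 30736. ATP5O, which joins stalk and head, had 51.3, 33.8 and 18.7 CPM in shTCTP and 43.8, 46.1 and 44.4 CPM in shCtrl, so the shTCTP libraries lay on either side of narrowly spread controls (log2 fold change -0.37, SE 0.24, adjusted p = 0.610, -0.062 without shTCTP 3, and -0.77 with an adjusted p of 0.058 without shTCTP 1). ATP5O shares bases on its own strand with a row holding 16323 reads against its own 6959, so its count is uncertain. The 3 genes for the c-ring, ATP5G1, ATP5G2 and ATP5G3, make the same mature protein. Their levels were 204 ± 9.21, 96.3 ± 4.70 and 110 ± 17.2 FPKM in shTCTP, and 217 ± 22.1, 104 ± 6.42 and 119 ± 8.18 FPKM in shCtrl (SD, n = 3 each). Their log2 fold changes were -0.19, -0.22 and -0.20, with adjusted p from 0.616 to 0.747, and -0.069, -0.12 and -0.017 without shTCTP 3. ATP5I and ATP5J2, membrane subunits e and f, were lowest in shTCTP 3. ATP5I had 414, 385 and 169 CPM in shTCTP and 283, 403 and 399 CPM in shCtrl, and ATP5J2 had 294, 318 and 168 CPM in shTCTP and 201, 234 and 291 CPM in shCtrl. ATP5J2 had the only unadjusted p under 0.05 beside NDUFA4L2 when shTCTP 3 was left out (log2 fold change 0.35, adjusted p = 0.382), and it shares its locus with the readthrough row ATP5J2-PTCD1.

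**Figure D5:**
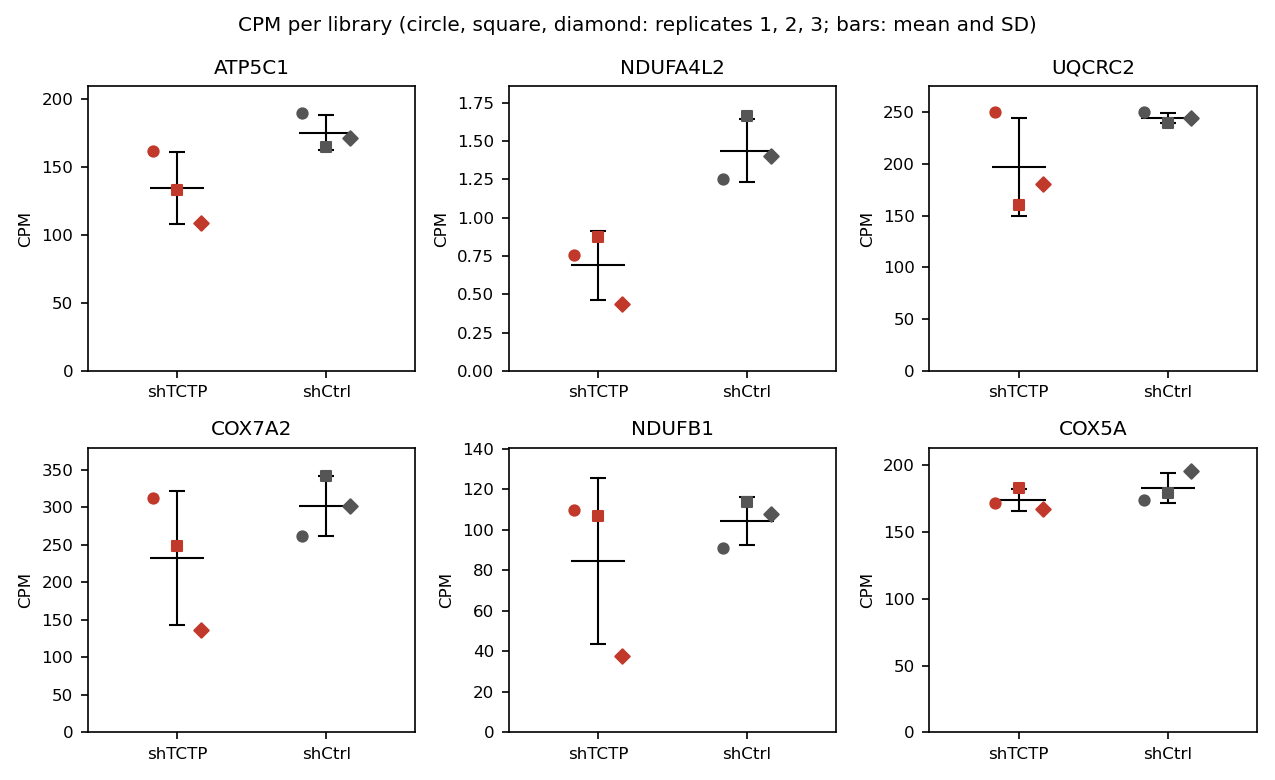
CPM of 6 members in each library (circle, square and diamond for replicates 1, 2 and 3), with lines at the mean and bars of 1 SD, shTCTP left of shCtrl. ATP5C1 and NDUFA4L2 do not overlap between groups, UQCRC2 is lowest in shTCTP 2, COX7A2 and NDUFB1 are lowest in shTCTP 3, and COX5A is level.

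Over the list, 5 members had every shTCTP library below every shCtrl library (ATP5S, SDHA, NDUFA4L2, ATP5C1 and ATP5H), where 7.3% of all tested genes did, and 0 had every shTCTP library above, where 9.83% did. The 4 rows that share only a prefix or serve other roles were not called either. COX7A2L, a factor of respiratory supercomplexes, had 70.3 ± 1.58 FPKM in shTCTP and 64.6 ± 4.02 FPKM in shCtrl (SD, n = 3 each; log2 fold change 0.021, adjusted p = 0.976). ATP5S, a coupling factor, had a log2 fold change of -0.30 (adjusted p = 0.489), ATP5SL one of 0.21 (adjusted p = 0.655, and 0.31 without shTCTP 3) and ATP5J2-PTCD1 one of -0.17 (adjusted p = 0.773, and -0.004 without shTCTP 3).

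Genes around the complexes were read from the same fit, in which 1.41% of all tested genes passed the threshold and 50.4% had negative values. The counts of each list below stand beside those shares. Of 49 assembly factors, which build the complexes, 0 passed the threshold, and 24 had negative values (median log2 fold change 0.024, and 0.074 without shTCTP 3). The smallest p belonged to SDHAF4, which helps mature SDHA, with 5.80 ± 2.43 CPM in shTCTP and 8.23 ± 0.375 CPM in shCtrl (SD, n = 3 each; log2 fold change -0.51, adjusted p = 0.476, and -0.19 without shTCTP 3), and to COX10, a heme A synthesis enzyme, with 18.1 ± 0.336 CPM in shTCTP and 15.2 ± 0.656 CPM in shCtrl (SD, n = 3 each; log2 fold change 0.25, adjusted p = 0.542). Of 13 coactivators and transcription factors of mitochondrial genes 0 passed and 6 were negative, with a median of 0.050 and of -0.029 without shTCTP 3. PPRC1, a coactivator of the PGC-1 family, had 48.3 ± 6.36 CPM in shTCTP and 37.3 ± 1.40 CPM in shCtrl (SD, n = 3 each; log2 fold change 0.37, adjusted p = 0.267). NRF1, whose motif is marked in the promoters, had 20 ± 1.07 CPM in shTCTP and 15.7 ± 1.29 CPM in shCtrl (SD, n = 3 each; log2 fold change 0.35, adjusted p = 0.362).

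Of 16 citrate cycle genes 0 passed and 9 were negative, with a median of -0.023 and of -0.079 without shTCTP 3. The smallest p of that list were those of FH, fumarate hydratase (log2 fold change -0.11, adjusted p = 0.824), and PDHB, a pyruvate dehydrogenase subunit (log2 fold change -0.10, adjusted p = 0.839). Of 13 other partners, such as carriers and electron donors, 0 passed and 12 were negative (median -0.11, and -0.063 without shTCTP 3), where 1.41% of all tested genes passed and 50.4% were negative. The smallest p were those of USMG5 and of the phosphate carrier SLC25A3 (log2 fold change of SLC25A3 -0.22, adjusted p = 0.637, and -0.13 without shTCTP 3). USMG5 is a small protein of the ATP synthase, and the symbol rule for the members did not take it. It had 106 ± 44.4 CPM in shTCTP and 140 ± 3.34 CPM in shCtrl (SD, n = 3 each; log2 fold change -0.40, adjusted p = 0.533, and -0.10 without shTCTP 3). Among the 13 tested messages for the subunits encoded in mitochondria, all had negative values (median -0.41, and -0.33 without shTCTP 3), and 1 was called lower. This was MT-ATP8 of complex V, with 858 ± 80.4 CPM in shTCTP and 1440 ± 97.2 CPM in shCtrl (SD, n = 3 each; log2 fold change -0.75, SE 0.16, adjusted p = 0.0253). Without shTCTP 3 its log2 fold change was -0.78 (adjusted p = 0.00286). MT-ATP6, also of complex V, was not called (log2 fold change -0.46, SE 0.19, adjusted p = 0.357). How reads were divided between the MT-ATP8 and MT-ATP6 rows is not given in the sources used here. Over all tested genes 0.148% were called lower and 50.4% had negative values. Of the 13, 8 had an unadjusted p under 0.05, where 4.27% of all genes had one with lower values, and 8 had every shTCTP library below every shCtrl library, where 7.3% of all genes did. The difference between the nuclear and the mitochondrial lists was not tested.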

How the data were processed

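Polyadenylated RNA of 3 shTCTP and 3 shCtrl samples was sequenced as directional paired-end libraries, per the labels' protocols. The authors deposited whole-number read counts per gene and FPKM per gene. The tools named in the submitters' processing notes are bcl2fastq, TopHat2 and edgeR, and the build is GRCh38. For the counter, its annotation, its use of strand and all versions, the sources used here give nothing, so genes that share bases on opposite strands may share reads. FPKM is not scaled between libraries by TMM, and CPM here is.

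Counts of all genes were tested with the edgeR 4.0.16 quasi-likelihood test (R 4.3.3; filterByExpr, TMM, robust dispersion, group as the only term), with Benjamini-Hochberg adjustment over 14197 genes and a threshold of 0.05. Log2 CPM for distances used a prior count of 2. SE came from the estimate and its F statistic. Coordinates and coding lengths came from GENCODE 29, in which 98.0% of genes were found, and promoters from RefSeq. The procedure was tested on simulated counts with changes in genes drawn from all tested genes. It recovered 37.3% of 1.5-fold, 70.3% of 2-fold and 95.3% of 4-fold changes, and 6.43% of its 140 calls were false. Many changes of 1.5-fold were thus missed in the simulated counts at the threshold used. No rates were obtained for the members alone. Whether the rates hold where a whole library is displaced from its group, as in these data, was not tested.

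NDUFA4 and NDUFA4L2 were counted in complex IV, and COX7A2L, ATP5S, ATP5SL and ATP5J2-PTCD1 in no complex. Named were TPT1, in each complex the 3 genes with the smallest p and the 2 with the highest FPKM, isoform pairs, and from each related list called genes or the 2 with the smallest p. Other named genes and the division into subunit roles were chosen after values were seen. The members, lists and comparison were chosen with earlier results of these data known. Libraries of the same group were all distinct, with a chi-square of 15.1 to 94.1 per degree of freedom between pairs. Alternatives were RLE and upper quartile scaling, a filter of 1 CPM in 3 libraries or none, DESeq2 1.42.0, limma 3.58.1 (voom, and log2 FPKM with pseudocounts of 1 and 0.1), a replicate block, length correction (loess, span 0.3) and each library left out. Corrections for transcript length and GC content were added after seeing the data. Protein sequences and levels were not analysed here.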

Additional observations from a re-analysis of the deposited data

How the results depend on the processing

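The count of 0 members called held under every alternative run. Of all genes, 200 were called, against 317 with no filter, 314 with DESeq2, 130 with the replicate block, 305 with transcript length correction, and with 1 library left out 177, 89 and 343 (without shTCTP 1, 2 and 3) or 90, 79 and 101 (without shCtrl 1, 2 and 3). Whether same-numbered samples were prepared together is not given. Deviations of same-numbered libraries from their group means correlated at -0.232, 0.001 and -0.200, which cannot settle it with 3 libraries a group. The replicate block gave medians of -0.10, -0.025, -0.091, -0.18 and -0.19 for complexes I to V. The median of complex II became 0.080 on log2(FPKM + 0.1), where all genes had 0.091. With 1 library left out the medians ran from -0.19 to 0.067 (I), -0.082 to 0.017 (II), -0.24 to 0.077 (III), -0.30 to 0.029 (IV) and -0.26 to -0.017 (V). Over 34 named genes and all settings (646 values), 0 values were called (lowest adjusted p 0.058, ATP5O without shTCTP 1) and 39 turned in sign. NDUFB7 became 0.005 with voom, 0.11 with FPKM at either pseudocount, 0.007 with the replicate block, 0.012 with length correction, 0.027 with both, 0.015 with transcript length correction and 0.055 with GC correction. With FPKM at pseudocounts of 1 and 0.1, SDHA became 0.025 and 0.026, UQCRH 0.012 and 0.012, ATP5B 0.032 and 0.032, and COX5A 0.032 and 0.032. SDHB became -0.002 with GC correction. With 1 library left out, log2 fold changes ran from -0.297 to 0.074 for NDUFS5, -0.161 to 0.173 for NDUFB7, -0.088 to 0.176 for SDHB, -0.240 to 0.150 for UQCRH, -0.325 to 0.133 for UQCRQ, -0.114 to 0.196 for COX6A1, -0.275 to 0.087 for COX5B, -0.386 to 0.151 for ATP5I, -0.136 to 0.006 for ATP5B, -0.220 to 0.073 for COX4I1, -0.321 to 0.031 for COX6B1, -0.054 to 0.125 for COX7A2L, -0.475 to 0.196 for COX7B, -0.214 to 0.023 for COX8A and -0.347 to 0.027 for NDUFA4. The positive end came without shTCTP 3 for each of these genes except NDUFB7, where it came without shCtrl 3. The cause of these turns was not tested. The median SE of 0.158 limits what 3 libraries a group can show.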
